A study of Mus musculus with 6 samples.

Results

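The transcription factor p53, encoded by Trp53, and 31 of its listed targets and regulators were followed in mouse embryonic stem cells with and without Hoxd12, a homeobox gene of the HoxD cluster. The 32 genes are a set of literature targets grouped by role, of 55450 genes in the files, and 31 of them had enough counts to be tested, among 12891 genes in all. The labels give 2 groups of 3 libraries of C57BL6 cells from E3.5 embryos: Hoxd12-/- (KO) and Wild Type (WT). Both groups were kept in mES medium supplemented with 2i, inhibitors of MEK and GSK3 that favour naive pluripotency, and were profiled by mRNA sequencing. Whether the 3 libraries of a genotype stem from different cultures or clones is not labelled, and the p-values therefore describe spread among these libraries, possibly technical spread only.

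In most cells p53 is kept low by the ubiquitin ligase Mdm2 and its relative Mdm4, and Mdm2 is itself a p53 target, which closes a feedback loop. After DNA damage or other stress p53 accumulates and raises genes that stop the cell cycle, repair DNA or cause cell death. Mouse embryonic stem cells are known for abundant p53 mRNA and protein together with a weak G1 checkpoint.

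Library totals ran from 5412577 to 6280934 expected counts, so that 3 counts equal 0.478 to 0.554 CPM (counts scaled to a common library size), a limit for counting error only. Hoxd12 had 0 counts in all 6 libraries, so its transcript gives no check of the labels. KO replicate 2 stood apart in 3 transcripts: CT010467.1 took 1.63% of its counts and 0.102% to 0.139% of the other libraries, and AY036118 and Lars2 were also high there. Leaving these 3 transcripts out of the fit kept the 14 called genes described here. The stem cell marker list, 10 genes such as Pou5f1 and Nanog, summed to 8889 to 9392 CPM in KO and 8745 to 9363 CPM in WT. The 12 fibroblast and feeder markers summed to 7.94 to 11.7 CPM in KO and 12.4 to 18.5 CPM in WT, with Col3a1, Postn, Lum, Dcn and Twist2 at 0 counts in all libraries. The 10 trophectoderm and endoderm markers summed to 45 to 48.2 CPM in KO and 44.3 to 46.9 CPM in WT. The part of these lists in the results was not tested.

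The question of the comparison was how the p53 pathway differs between the genotypes. Mdm4, Mdm2, the repair genes Ddb2, Ercc5 and Xpc, and Pltp, Ccng2, Gadd45a and Ckap2 rose in KO, while Trp53, Ccng1, Aen, Dcxr and Gadd45g fell. That is 9 rises (29.0%) and 5 falls (16.1%) among the 31 tested genes (quasi-likelihood test of edgeR; p adjusted after Benjamini and Hochberg over all genes, below 0.05). Over all genes tested 12.1% rose, 14.4% fell and 26.5% changed in either direction, against 45.2% of these 31. The sizes were modest: the median log2 fold change was 0.14, beside 0.02 over all tested genes, with a range from -0.84 to 0.60. Of the 31 genes 17 had a positive change, as did 6725 of all 12891 tested genes. The median absolute change was 0.22, against 0.20 for all genes. KO and WT libraries did not overlap in 22 of the 31 genes (71.0%), against 39.7% of all genes. The list was chosen with earlier results of these data known. Its shares of calls and of separate groups are therefore descriptions, and the differences from all genes were not tested. The number of calls depended on the method. DESeq2 called 2 of these genes (Mdm4 and Pltp; 11.7% of all genes it tested), and limma on log2(TPM + 1) called 6, all higher (14.4% of all genes). On log2(TPM + 0.1) the same calls of the 14 were lost as on log2(TPM + 1). Over all genes the split was 1559 higher and 1861 lower with edgeR, 520 and 1055 with DESeq2, and 1107 and 749 on log2(TPM + 1). With the median log2 fold change of each gene's chromosome removed, an alternative chosen after seeing the data, 8 of these genes were called (24.4% of all genes) and the split over all genes was 1239 higher and 1900 lower.

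**Figure D1:**
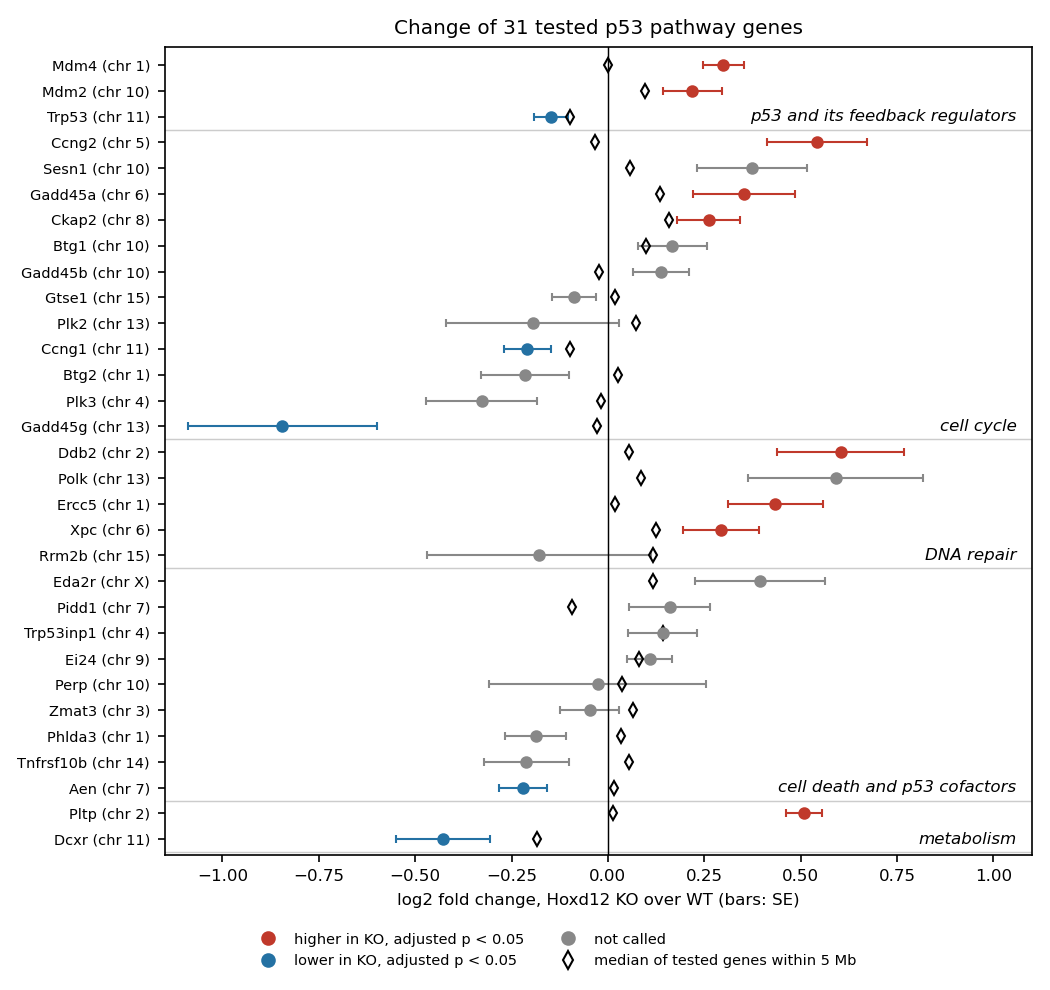
Log2 fold change (KO over WT) of the 31 tested genes with its SE, grouped by role, with the median of the tested genes within 5 Mb of each gene as an open diamond. Red and blue points are the 9 rises and 5 falls; the repair genes lie to the right except Rrm2b, and Gadd45g lies farthest left at -0.84.

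Trp53 mRNA was slightly lower in KO. It measured 300.1, 280.2 and 301 CPM in the KO libraries and 325, 327 and 323 CPM in WT. All WT libraries lay above all KO libraries, and KO replicate 2 was the lowest. In such bulk samples fewer cells of a type and less RNA per cell cannot be told apart. The means were 294 ± 11.7 and 325 ± 1.95 CPM (SD, n = 3), a log2 fold change of -0.15 (SE 0.04; adjusted p = 0.0127). Trp53 (ENSMUSG00000059552) lies on chromosome 11 from 69580359 to 69591873 (GRCm38), and genes of that chromosome had a median of -0.12. The 132 tested genes within 5 Mb of it had a median of -0.10, with 4 higher and 35 lower. With the chromosome's median removed the change was -0.02 (adjusted p = 0.754). Its call was also lost without KO replicate 2 or WT replicate 2 (0.0579 for each), with DESeq2 (0.0667), with a transcript length offset (0.0906) and on log2(TPM + 1) (-0.02, adjusted p = 0.878). Scaled per transcript length, its level was 169 ± 15.9 TPM in KO and 171 ± 3.61 TPM in WT, the highest of the 32 genes. On log2(TPM + 1), however, the median change of all tested genes was 0.10. Relative to the median of all genes, Trp53 lay at -0.12 there and at -0.16 in the edgeR fit. The pseudogene Trp53-ps had 0 or 1 count in each library, so reads assigned to that copy were few.

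Mdm2 and Mdm4, which restrain p53, were both higher. Mdm4, which binds p53 and blocks its activity, measured 134, 142 and 142 CPM in KO and 116, 106 and 118 CPM in WT, with no overlap. Its means were 139 ± 4.53 and 113 ± 6.598 CPM (SD, n = 3), a log2 fold change of 0.30 (SE 0.05; adjusted p = 6.09e-05), and it passed in all 16 alternative fits (largest adjusted p = 0.0162). Mdm2, the ligase that marks p53 for degradation, measured 55.4, 53.3 and 52.2 CPM in KO and 46.5, 47.1 and 44.7 CPM in WT. Each KO library was above each WT library, and the log2 fold change was 0.22 (SE 0.08, adjusted p = 0.0308). Mdm2 kept its direction in each alternative, but the call was lost with DESeq2 (0.289), with no count filter (0.0507), with chromosome centring (0.0681), without KO replicate 1 (0.111) or 2 (0.0520) and without WT replicate 1 (0.0612), 2 (0.0557) or 3 (0.106). Mdm4 lies on chromosome 1 (132959484 to 133030561) and Mdm2 on chromosome 10 (117688875 to 117710758), with medians of neighbouring genes of -0.001 and 0.10. Per transcript length, Mdm2 stood to Trp53 at a TPM ratio of 0.114, 0.119 and 0.108 in KO and 0.0880, 0.0875 and 0.0865 in WT. The ratio was thus higher in every KO library than in any WT library; it was not tested.

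**Figure D2:**
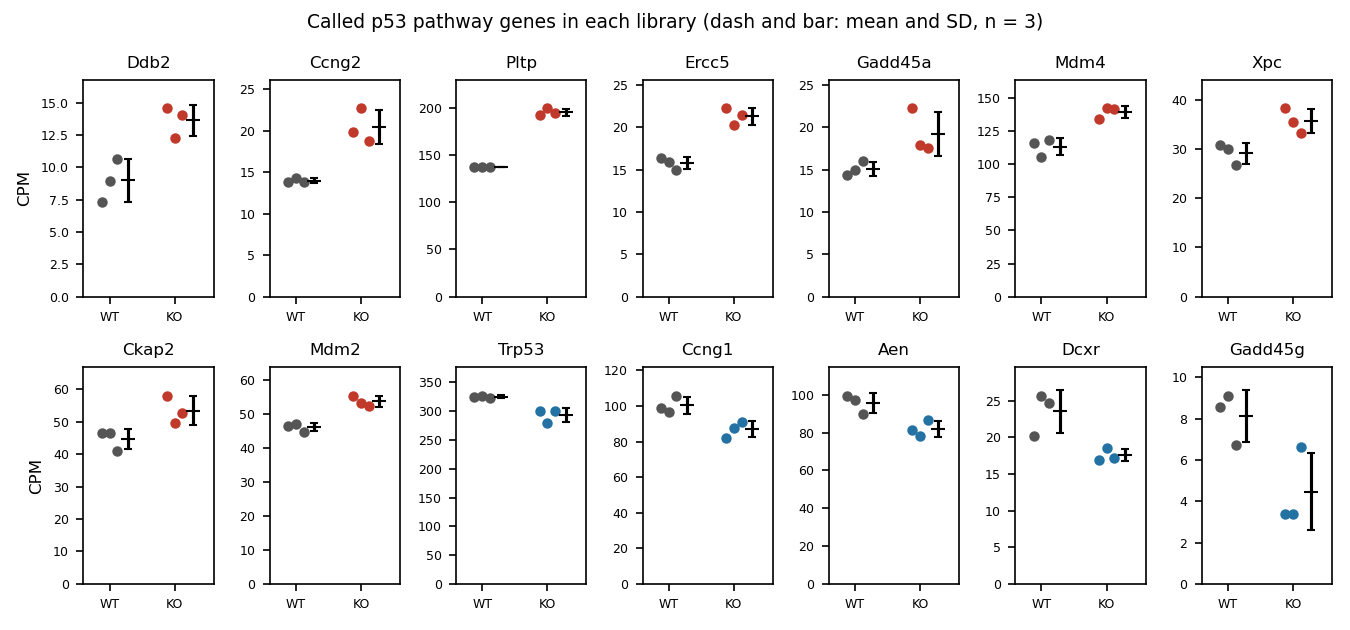
CPM of each of the 14 called genes in the 3 WT libraries (grey) and the 3 KO libraries (red where higher, blue where lower), with the mean and SD beside them and axes that start at 0. The 2 groups do not overlap in any of the 14 panels, and Gadd45g has 1 KO library, at 6.62 CPM, just below its lowest WT library at 6.70 CPM.

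Among 12 genes that act on the cell cycle, 3 rose (Ccng2, Gadd45a and Ckap2), 2 fell (Ccng1 and Gadd45g) and 7 did not pass. Their median was 0.02, close to that of all genes. The share called was 41.7%, against 26.5% of all tested genes, and the difference was not tested. The cyclin G genes went opposite ways. Ccng1, a classical p53 target whose product acts with a phosphatase on Mdm2, measured 82.1, 87.5 and 91.0 CPM in KO and 98.8, 96.7 and 106 CPM in WT (log2 fold change -0.21, SE 0.06, adjusted p = 0.00943). Ccng2, which is also induced by FoxO factors, measured 19.8, 22.7 and 18.8 CPM in KO and 13.8, 14.3 and 13.8 CPM in WT (0.54, SE 0.13, adjusted p = 0.00183). Neither gene's groups overlapped in CPM. Per transcript length the picture was less clean: the TPM ratio of Ccng2 to Ccng1 was 0.337, 0.407 and 0.273 in KO and 0.185, 0.230 and 0.280 in WT, where the groups overlap. The call of Ccng1 was lost with chromosome centring (-0.09, adjusted p = 0.327), DESeq2 (0.137), the length offset (0.0611) and log2(TPM + 1) (0.565), and without KO replicate 1 (0.0780) or WT replicate 3 (0.0758). Like Trp53 it lies on chromosome 11. Ccng2, on chromosome 5, lost its call with the length offset (0.36, adjusted p = 0.204), DESeq2 (0.0626) and log2(TPM + 1) (0.123), and in no fit that left out a library.

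The Gadd45 genes encode small stress sensors that bind cell cycle and kinase partners, and they did not move together. Gadd45g fell the most of the 31 genes, from 8.56, 9.12 and 6.70 CPM in WT to 3.36, 3.40 and 6.62 CPM in KO (log2 fold change -0.84, SE 0.24, adjusted p = 0.00966). Its KO replicate 3 was close to the WT libraries and the other KO libraries were far lower. Gadd45a, a direct p53 target, measured 22.2, 17.96 and 17.5 CPM in KO and 14.3, 14.98 and 15.98 CPM in WT (0.35, SE 0.13, adjusted p = 0.0470), KO replicate 1 being the highest. Gadd45b measured 67.0 ± 3.10 CPM in KO and 61.0 ± 5.30 CPM in WT (SD, n = 3; 0.14, adjusted p = 0.172). The TPM ratio of Gadd45g to Gadd45a ran from 0.153 to 0.379 in KO and from 0.449 to 0.662 in WT, without overlap. Both calls depended on single libraries. Gadd45g was lost without KO replicate 1 (0.0817) or 2 (0.0530) or WT replicate 2 (0.0637), with DESeq2 (0.123), with the length offset (0.0531) and on log2(TPM + 1) (0.0963). Gadd45a passed in 3 of 16 alternative fits; without KO replicate 1 its change was 0.23 (adjusted p = 0.277), and it was lost without WT replicate 1 (0.138), 2 (0.108) or 3 (0.0647), with RLE scaling (0.0511), with chromosome centring (0.20, adjusted p = 0.309) and with the replicate block (0.0619). Gadd45a lies on chromosome 6, whose median was 0.16, and shares 337 exonic bases with E230016M11Rik on the opposite strand, which had 6.16 to 9.58 counts per library. Whether counting used strand is not given in the sources used here, so values of genes that share exonic bases are uncertain.

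Ckap2 and Gtse1 are p53-linked genes whose products peak in G2 and mitosis; Ckap2 binds spindle microtubules and Gtse1 carries p53 out of the nucleus. Ckap2 measured 58.1, 49.5 and 52.8 CPM in KO and 46.5, 46.6 and 41.1 CPM in WT (log2 fold change 0.26, SE 0.08, adjusted p = 0.0163). Gtse1 measured 96.4 ± 5.17 CPM in KO and 102 ± 0.697 CPM in WT (SD, n = 3; -0.09, adjusted p = 0.278). Among 10 further G2 and mitosis genes Mki67 (log2 fold change 0.26, adjusted p = 0.000241) and Bub1 (0.31, adjusted p = 0.00474) rose. Ccnb1 (-0.17, adjusted p = 0.00543) and Aurka (-0.17, adjusted p = 0.0202) fell, and the others, Cdk1 and Plk1 among them, did not pass. That is 40% called, against 26.5% of all tested genes, and the difference was not tested. Mki67, Bub1, Ccnb1 and Aurka were named after their values were seen. Ckap2 lies on chromosome 8, where the median was 0.17 and that of its 54 neighbours 0.16. Its call was lost with chromosome centring (0.09, adjusted p = 0.440), DESeq2 (0.207), without KO replicate 1 (0.131) and without WT replicate 3 (0.113).

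The promoters were searched for the p53 response element, since a copy next to the start site may let p53 act at close range. Binding of p53 was not measured. RefSeq promoters (GRCm38.p6) matched 25 of the 32 genes by symbol. Ddb2, Xpc, Rrm2b, Zmat3, Perp, Trp53inp1 and Tnfrsf10b had no matched promoter and were not searched. In the 250 bases upstream of a start site, the palindromic consensus of 20 bases was sought on both strands without a spacer, with the core C and G bases present and at most 2 mismatches. Ccng1 and Ckap2 held it, 2 of 25 genes, as did 0.329% of all 27025 genes. Among 32 matched other targets it was found in Cdkn1a and Rps27l. In the sequences below, 5′ to 3′ on the gene's strand, capitals mark the match. The Ccng1 window is chr11:40755402-40755536 (minus strand), with 1 mismatch, starting 195 bases upstream of the start site. The Ckap2 window is chr8:22185943-22186069 (minus strand), with 2 mismatches, starting 203 bases upstream. The Cdkn1a window is chr17:29090868-29090975 (plus strand), with 1 mismatch, starting 51 bases upstream. None of the 3 matches shown lies in an exon of GENCODE M21.
Ccng1: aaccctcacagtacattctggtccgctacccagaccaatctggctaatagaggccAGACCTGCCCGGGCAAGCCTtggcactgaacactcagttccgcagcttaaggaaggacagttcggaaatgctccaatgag
Ckap2: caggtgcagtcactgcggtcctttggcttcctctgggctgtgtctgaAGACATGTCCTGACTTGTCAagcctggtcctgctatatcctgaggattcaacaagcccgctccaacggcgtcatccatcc
Cdkn1a: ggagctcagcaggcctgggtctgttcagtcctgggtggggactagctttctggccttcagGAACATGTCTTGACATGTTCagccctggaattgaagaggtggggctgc
The 4 genes with a match, Rps27l included (1 mismatch, 117 bases upstream), did not share a direction: Ccng1 and Rps27l fell, Ckap2 rose and Cdkn1a, at 163 ± 3.87 CPM in KO and 173 ± 8.25 CPM in WT (SD, n = 3), was not called (-0.08, adjusted p = 0.207). A second motif, the CHR element (TTTGAA on either strand) through which the DREAM complex represses cell cycle genes, was in the promoters of Ckap2, Ercc5, Aen and Fas, 4 of 25 genes, and in 18.3% of all genes. It did not overlap the p53 match of Ckap2. A match is a description of these letters only, and many p53 sites lie in introns or farther upstream, outside these windows.

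The remaining cell cycle genes were not called. Sesn1, a stress-induced inhibitor of growth signalling, measured 16.8, 17.4 and 14.8 CPM in KO and 13.4, 10.9 and 13.4 CPM in WT, without overlap. It missed the threshold (0.37, SE 0.14, adjusted p = 0.0509). Its adjusted p in the alternatives ran from 0.0451 without KO replicate 3 to 0.351 with DESeq2. The antiproliferative genes Btg1 (0.17, adjusted p = 0.177) and Btg2 (-0.21, adjusted p = 0.170) differed in sign. For each of them KO and WT libraries did not overlap. The polo-like kinases Plk3 (-0.33, adjusted p = 0.0914) and Plk2 (-0.20, adjusted p = 0.571) had overlapping groups. For Plk3 the adjusted p was 0.0376 without KO replicate 1 and 0.369 without KO replicate 2.

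Of the 5 DNA repair genes 3 rose with edgeR (Ddb2, Ercc5 and Xpc), 0 fell, and Polk and Rrm2b did not pass; over all tested genes 12.1% rose. Their median log2 fold change was 0.43, and DESeq2 called none of the 5. With edgeR 4 of the 5 had an unadjusted p below 0.05, as did 4743 of all 12891 tested genes. The difference was not tested. Ddb2 encodes the subunit that recognises ultraviolet damage in chromatin. It measured 14.6, 12.3 and 14.01 CPM in KO and 7.34, 8.96 and 10.7 CPM in WT, the largest rise of the 31 genes (log2 fold change 0.60, SE 0.16, adjusted p = 0.00592). Ercc5, the nuclease that cuts on the 3′ side of a lesion, measured 22.2, 20.2 and 21.4 CPM in KO and 16.4, 15.96 and 14.95 CPM in WT (0.43, SE 0.12, adjusted p = 0.00790). Xpc, the sensor of helix distortion, measured 38.3, 35.5 and 33.3 CPM in KO and 30.7, 30.0 and 26.6 CPM in WT (0.29, SE 0.10, adjusted p = 0.0260). All 3 genes act in nucleotide excision repair, and for each the groups did not overlap. Polk, a polymerase that copies past lesions, measured 6.88, 6.05 and 7.70 CPM in KO and 4.54, 4.40 and 4.81 CPM in WT (0.59, SE 0.23), which did not pass (adjusted p = 0.0511). It passed without KO replicate 2 (0.0476), with the length offset (0.0429) and on log2(TPM + 1) (0.0447). With DESeq2 the adjusted p of Polk was 0.343, and without KO replicate 3 it was 0.181. Rrm2b, the p53-induced ribonucleotide reductase subunit, measured 3.64 ± 0.596 CPM in KO and 4.15 ± 0.780 CPM in WT (SD, n = 3; -0.18, adjusted p = 0.706).

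The repair calls differed in how far they held. Ercc5 was lost with DESeq2 alone (0.154). Ddb2 was lost with DESeq2 (0.125), the length offset (0.0986) and on log2(TPM + 1) (0.0597), and in no fit without a library. Xpc was lost without KO replicate 1 (0.136) or WT replicate 3 (0.145), with DESeq2 (0.248), on log2(TPM + 1) (0.0525) and with chromosome centring (0.14, adjusted p = 0.347). Xpc lies on chromosome 6, Ddb2 on chromosome 2 (91211572 to 91236982) and Ercc5 on chromosome 1 (44147744 to 44181260). Ddb2 shares 652 exonic bases with Acp2 on the opposite strand, which had 57.4 to 76.0 counts per library. The abundance-weighted transcript length did not overlap between groups for Xpc (3682 bases in KO, 3749 in WT), Polk (3942 and 4225), Trp53 (1773 and 1782) and Ei24 (2193 and 2217). The share of all tested genes with such lengths is not given here. Whether the mix of isoforms differed between the genotypes was not tested.

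Of 9 tested genes of cell death and of the p53 cofactors, 1 fell (Aen), 0 rose and 8 did not pass, with a median of -0.03. That is 11.1% called, against 26.5% of all tested genes, and the difference was not tested. Aen, a nuclease that enhances apoptosis, measured 81.2, 78.1 and 86.4 CPM in KO and 99.5, 97.4 and 89.7 CPM in WT (log2 fold change -0.22, SE 0.06, adjusted p = 0.00776). It was lost with DESeq2 (0.123) and on log2(TPM + 1) (-0.12, adjusted p = 0.461), and in no fit that left out a library. The death receptor gene Tnfrsf10b lay lower in each KO library than in any WT library (21.6 ± 0.756 and 25.0 ± 0.973 CPM, SD, n = 3) but was not called (-0.21, adjusted p = 0.159). Phlda3, an inhibitor of Akt, had a change of -0.19 (adjusted p = 0.0816). Its adjusted p was 0.0362 without WT replicate 3 and 0.0348 with chromosome centring, but 0.329 without KO replicate 1 and 0.405 with DESeq2. Eda2r, a receptor of the TNF family, measured 11.5 ± 1.58 CPM in KO and 8.77 ± 0.271 CPM in WT (SD, n = 3; 0.39, adjusted p = 0.0826). Ei24, an endoplasmic reticulum protein gene, was at 0.11 (adjusted p = 0.177). Its change was 0.18 without KO replicate 2 (adjusted p = 0.0163) and 0.05 without KO replicate 1 (adjusted p = 0.641). Pidd1, which builds the platform that activates caspase-2, was at 0.16 (adjusted p = 0.277). Trp53inp1, a cofactor of p53, was at 0.14 (adjusted p = 0.255). The RNA-binding protein gene Zmat3 (-0.05, adjusted p = 0.702) and the membrane protein gene Perp (-0.03, SE 0.28, adjusted p = 0.956) had overlapping groups. Fas, the classical death receptor, had 0, 1 and 0 counts in KO and 0, 2 and 0 in WT, all under 3 counts, and was not tested.

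Pltp, which transfers phospholipids between lipoproteins, showed the smallest adjusted p of the 31 genes. It measured 192, 199.7 and 195 CPM in KO and 138, 137 and 138 CPM in WT (log2 fold change 0.51, SE 0.05, adjusted p = 2.86e-10) and passed in all 16 alternative fits. The WT libraries agreed closely (SD 0.251 CPM) and the KO libraries lay well above them. Per length it was the second most abundant of these genes, with 121 ± 4.21 TPM in KO and 78.6 ± 2.47 TPM in WT. Pltp lies on chromosome 2 from 164839518 to 164857711 and shares 495 exonic bases with Ctsa on the opposite strand, which had 760 to 904 counts per library. Dcxr, a sugar and carbonyl reductase, measured 17.0, 18.5 and 17.2 CPM in KO and 20.3, 25.7 and 24.8 CPM in WT (-0.43, SE 0.12, adjusted p = 0.00848). Dcxr lies on chromosome 11, where its 123 neighbours had a median of -0.18. Its call was lost with chromosome centring (-0.31, adjusted p = 0.0657), with DESeq2 (0.146), on log2(TPM + 1) (0.0858) and without WT replicate 2 (0.0668).

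**Figure D3:**
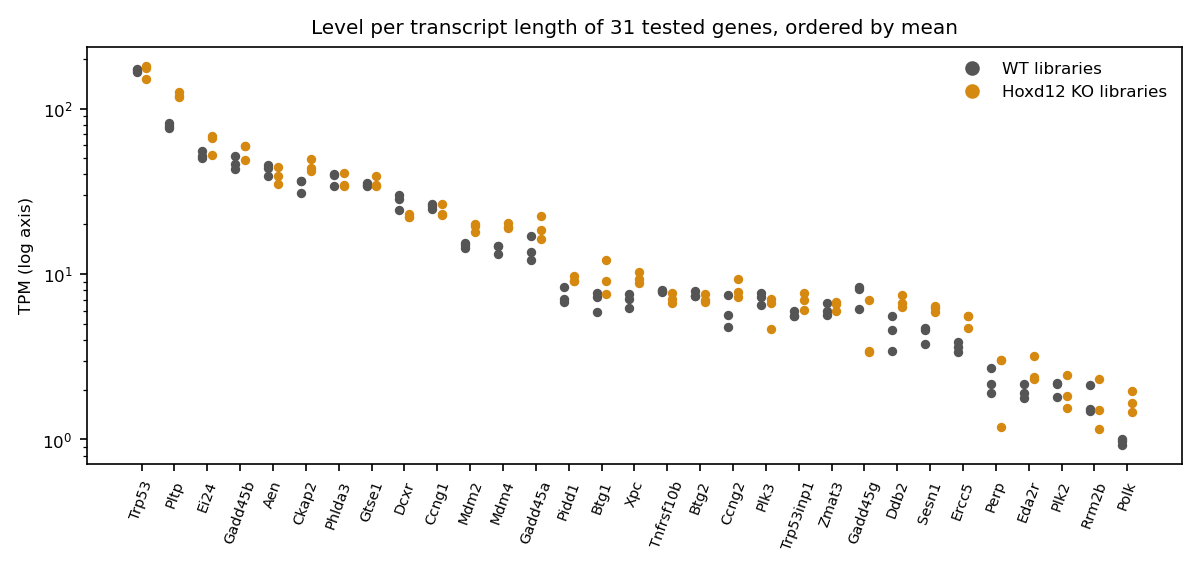
TPM of the 31 tested genes in each library on a log axis, ordered by the mean of all 6 libraries (WT grey, KO orange). Trp53 is highest at 171 TPM in WT and 169 in KO and its points overlap, while Pltp is clearly separated at 78.6 and 121 TPM. TPM are shown as given by the authors, and the median change of all tested genes on log2(TPM + 1) was 0.10. Fas, which was not tested, is left out.

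Chromosomal position moved with part of these calls. Chromosomes 6 (median 0.16), 8 (0.17) and 11 (-0.12) were shifted as a whole. Of 600 tested genes on chromosome 6, 183 were called higher and 47 lower. Of 703 on chromosome 8, 212 were higher and 42 lower. Of 1050 on chromosome 11, 34 were higher and 293 lower, so most genes of these chromosomes were not called. Among the 31 p53 genes, 6 lie on them. All 6 were called, each with the sign of its chromosome: Gadd45a and Xpc on chromosome 6 and Ckap2 on chromosome 8 were higher, and Trp53, Ccng1 and Dcxr on chromosome 11 were lower. With the chromosome medians removed, 0 of these 6 passed. Of the 8 called genes on other chromosomes, 7 passed that fit: Mdm4, Ccng2, Ddb2, Ercc5, Pltp, Gadd45g and Aen. The exception was Mdm2, at 0.19 (adjusted p = 0.0681). For the 6 genes on chromosomes 6, 8 and 11, a change of the gene itself and a shift shared with its chromosome cannot be told apart.

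**Figure D4:**
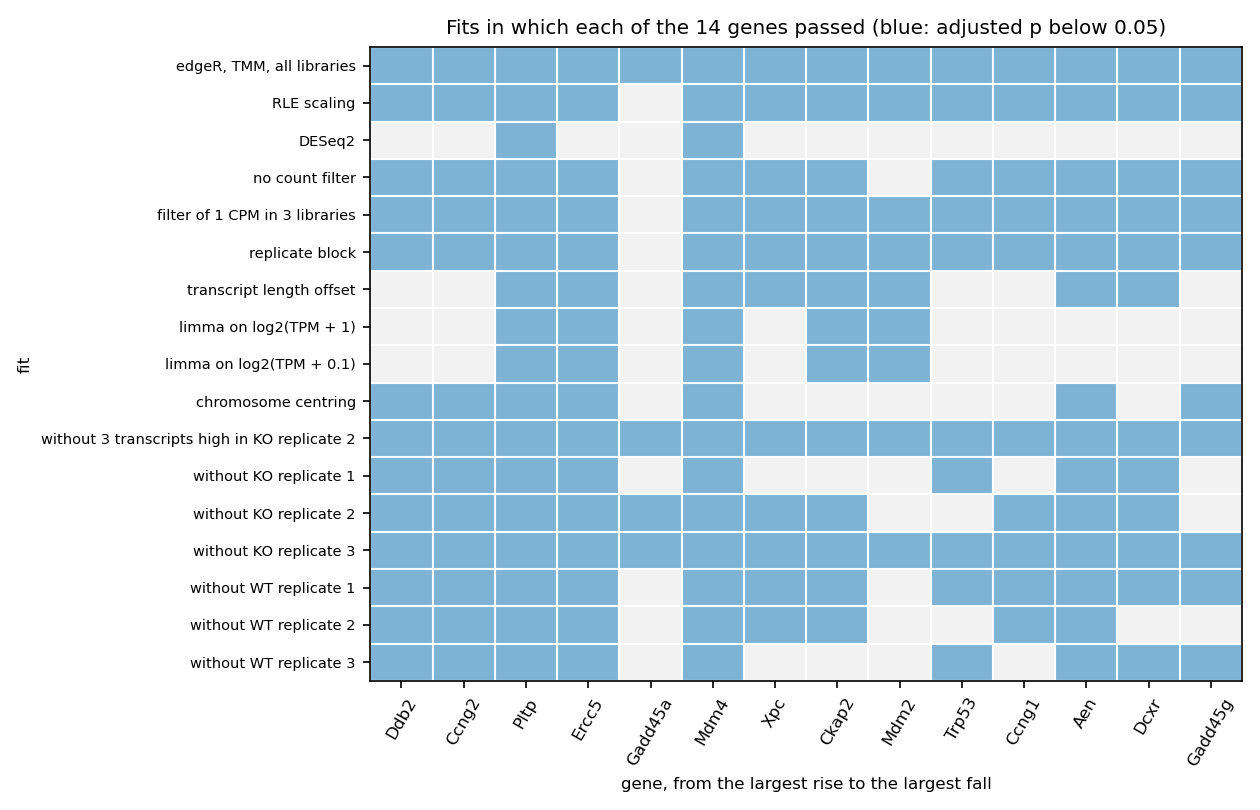
Each column is 1 of the 14 called genes and each row is 1 fit, the edgeR fit of all libraries on top and the 16 alternatives below; blue marks an adjusted p below 0.05. The columns of Mdm4 and Pltp are blue throughout, the row of DESeq2 is blue for these 2 genes only, and the column of Gadd45a is blue in 3 of the alternatives.

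Other targets of p53 from the literature were called at a rate near that of all genes. Of 33 listed genes 31 were tested: 6 rose, 3 fell and 22 did not pass, 29.0% called, with a median of -0.04. Epha2, a receptor tyrosine kinase, rose from 79.3 ± 4.66 to 106 ± 8.41 CPM (SD, n = 3; log2 fold change 0.42, adjusted p = 5.44e-06). Ddit4, an inhibitor of mTOR signalling, rose from 125 ± 3.88 to 156 ± 5.35 CPM (0.32, adjusted p = 6.95e-06). Rps27l, a ribosomal protein paralogue, fell from 342 ± 11.2 to 278 ± 8.45 CPM (-0.30, adjusted p = 4.06e-06), and Ninj1, which ruptures the membrane of dying cells, fell from 40.1 ± 0.876 to 29.6 ± 2.21 CPM (-0.44, adjusted p = 0.000526). Epha2, Ddit4 and Rps27l passed in all 16 alternatives, and Ninj1 was lost on log2(TPM + 1) (adjusted p = 0.0761) and log2(TPM + 0.1) (0.0772). The apoptosis gene Bax fell from 407 ± 13.05 to 359 ± 8.79 CPM (-0.18, adjusted p = 0.00274; 0.460 on log2(TPM + 1)). Bbc3, which encodes the killer protein Puma, measured 23.7, 23.8 and 22.3 CPM in KO and 19.6, 18.9 and 19.4 CPM in WT but was not called (0.27, adjusted p = 0.0790). Pmaip1, which encodes Noxa, was at 0.26 (adjusted p = 0.298).

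Regulators upstream of p53 were likewise called at about the rate of all genes: of 28 tested, 5 rose, 3 fell and 20 did not pass (28.6% called, median 0.09). Prkdc, the kinase of DNA end joining, rose from 20.3 ± 2.87 to 28.6 ± 1.38 CPM (SD, n = 3; log2 fold change 0.50, adjusted p = 0.00130; 0.0856 on log2(TPM + 1)). Cdkn2a, whose locus encodes the Mdm2 inhibitor Arf and the CDK inhibitor p16, rose from 45.2 ± 5.22 to 55.5 ± 5.71 CPM (0.29, adjusted p = 0.0135). Its call was lost with DESeq2 (0.156) and the length offset (0.05), without KO replicate 1 (0.0658) or 2 (0.0826) and without WT replicate 1 (0.104) or 2 (0.0593). Hipk2, a kinase that phosphorylates p53, fell from 10.1 ± 1.51 to 6.54 ± 0.732 CPM (-0.63, adjusted p = 0.0126) and was lost with DESeq2 (0.177), the length offset (0.0760) and on log2(TPM + 1) (0.180), and without KO replicate 3 (0.0586) or WT replicate 2 (0.0779) or 3 (0.0502). Of the damage kinases, Chek1 rose (0.25, adjusted p = 0.0397), which passed in 6 of 16 alternatives; the call was lost with DESeq2 (0.303), without KO replicate 1 (0.0914), 2 (0.133) or 3 (0.0541) and without WT replicate 2 (0.0767) or 3 (0.267). Chek2 (0.10, adjusted p = 0.413), Atr (0.08, adjusted p = 0.606) and Atm (-0.19, adjusted p = 0.635) were not called.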

How the data were processed

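Processed tables of 6 mRNA libraries were used. Per the file headers, each table holds gene lengths, expected counts, TPM and FPKM. The expected counts, deposited unscaled, are estimates that need not be whole. The TPM and FPKM of the authors correct for length and depth; FPKM was left unused. Bowtie 0.12.2 is listed among the tools in the submitters' processing notes, with mm8 and mm10 as builds. For the quantifier and strand setting, a statement is not given in the sources used here. Every one of the 55450 gene identifiers matched GENCODE M21 (GRCm38), whose symbols and coordinates are used.

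Counts were rounded. Tests used edgeR 4.0.16 (R 4.3.3): TMM, filterByExpr and the quasi-likelihood test over all genes, with group as the only term. An adjusted p (Benjamini-Hochberg) below 0.05 was a call. CPM are TMM-scaled. Alternatives were RLE scaling, DESeq2 1.42.0, other count filters, a replicate block, a length offset, log2(TPM + 1) or log2(TPM + 0.1) tested by limma 3.58.1, and each library left out; chromosome centring and removal of 3 transcripts were added after seeing the data. In simulated counts of 12708 genes, 50 genes each were changed 1.2-fold, 1.5-fold, 2-fold and 4-fold. Of these changes 16%, 54%, 78% and 98% were recovered, with 6 false calls. Far fewer genes were changed there than the 3420 called in the data. The simulated spread followed the trend with abundance, not the spread of each gene. These rates therefore need not hold for this comparison. The genes and lists were chosen with earlier results of these data known. All 32 genes are named, with the value of each library for called genes; from the other targets and from the regulators, 4 genes each set in the lists and the 4 called genes with the smallest p are named. Of the regulators, 1 of these is not reported here. Mki67, Bub1, Ccnb1 and Aurka were named after their values were seen.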

Additional observations from a re-analysis of the deposited data

How the results depend on the processing

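Over 16 alternatives the number of p53 genes called ran from 2 to 15, against 14. Of all genes that each fit tested, 11.7% to 26.7% were called, against 26.5%. That share was 13.3% with no count filter, 19.1% with the length offset and 19.9% to 24.3% without a library. The share of the 31 p53 genes was below that of all genes with DESeq2 (2 called) and close to it with chromosome centring (8 called). Among the p53 genes the number of rises was 9 in the main fit. It was 2 with DESeq2, 5 on log2(TPM + 0.1), 5 with chromosome centring, and 5 to 10 without each library in turn. The number of falls was 5 in the main fit, and 0 with DESeq2 and on both TPM scales. It was 2 with the transcript length offset, 3 with chromosome centring, and 2 to 5 without a library. These counts take in genes that only the alternative called. With chromosome centring the falls were Gadd45g, Aen and Phlda3, and Phlda3 was not called in the main fit. The median, 0.14, was 0.24 on log2(TPM + 0.1), where the median of all genes was 0.11; relative to all genes it was 0.12 in both fits. Among other targets, the 6 rises were 2 with DESeq2 and 3 to 5 without a library, and the 3 falls were 1 on both TPM scales and 5 with chromosome centring. Among regulators, the 5 rises were 1 with DESeq2 and on both TPM scales, 2 with the length offset, 3 with no count filter and with chromosome centring, and 1 to 3 without a library; the 3 falls were 1 with DESeq2, 0 on both TPM scales and 1 to 4 without a library. Over all genes 3420 were called by edgeR, 1575 by DESeq2, 1856 on log2(TPM + 1) and 1824 on log2(TPM + 0.1). Apart from what is in the text for each gene, the cause of these shifts was not tested. Among the genes tracked singly (all tested p53 genes and the named other targets and regulators), signs turned in these, none of them called: Cdkn1a (0.0458 on log2(TPM + 1), 0.0463 on log2(TPM + 0.1)), Gtse1 (0.0416 and 0.0426), Zmat3 (0.0681 and 0.0779), Atm (0.14 with the length offset, 0.20 and 0.24 on TPM), Chek2 (-0.0409 with the length offset) and Perp (0.0132 on log2(TPM + 1), and from -0.21 to 0.25 without a library). Counted singly over all alternatives, the tested p53 genes kept call and direction in 411 values, lost the call in 69, gained it in 9 and changed sign in 7. The labels number replicates 1 to 3 in both groups, but deviations of same-numbered libraries correlated by only 0.004, 0.04 and 0.02 across genes, so the numbers are not taken as pairs. With the replicate block 8 of the 31 genes rose and 5 fell, Gadd45a being the call lost. At these depths 3 counts, 0.478 to 0.554 CPM, limit what can be seen for Fas.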
